A study of Homo sapiens with 18 samples.

Results

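The genes described here encode the aminoacyl-tRNA synthetases, 35 of the 60709 genes with counts in the table. They were chosen by name. The cytosolic set holds 19 genes, those whose symbols end in 1 together with FARSA and FARSB, and the mitochondrial set holds the 16 nuclear genes whose symbols end in 2. RNA was measured in MDA-MB-231, a human triple-negative breast cancer cell line, as a control line with a hairpin against luciferase (sh-LUC, genotype WT in the labels) and a line with a hairpin against IGFBP6 (sh-IGFBP6, labelled as an IGFBP6 knockdown). IGFBP6 encodes a secreted protein that binds insulin-like growth factors. Both lines were plated at 800000 cells per well and grown for 24 h in DMEM with serum before the medium was changed for another 24 h. The new medium held either the vehicle (DMSO and ethanol, each at 0.5%) or erastin at 2.5 µM or DHA at 200 µM. Erastin blocks the cystine importer, lowers glutathione and induces ferroptosis, and DHA (docosahexaenoic acid) is an omega-3 fatty acid. These 6 groups held 3 libraries each. The labels do not give the number of clones per line or say if a group's 3 samples were grown separately. All p-values therefore rest on the spread among these samples alone, and that spread may be technical.

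Each aminoacyl-tRNA synthetase joins 1 amino acid to its transfer RNAs, the step that makes the genetic code readable by the ribosome. Human cells keep separate enzymes for the cytosol and for mitochondria, where a small set of respiratory chain proteins is translated, while GARS1 (glycine) and KARS1 (lysine) each encode both forms. QARS1 (glutamine) has no mitochondrial counterpart because mitochondria make that transfer RNA by amidation. When amino acids run short or the cell is otherwise stressed, the kinases of the integrated stress response raise translation of the transcription factor ATF4, and many cytosolic synthetase genes are known ATF4 targets, alongside genes of amino acid synthesis and uptake.

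Gene counts per library ran from 609936 to 7977429. In sh-LUC depth went with treatment: 2708143 to 4043424 counts with vehicle, 5666029 to 7937608 with DHA and 7281095 to 7977429 with erastin. The ranges of the sh-IGFBP6 groups overlapped. The library labelled sh-IGFBP6 erastin replicate 3 stood apart: MT-RNR1 and MT-RNR2, the mitochondrial ribosomal RNAs, took 54.4% of its counts against 0.0349% to 0.5043% in the other 17, and 278278 counts were left outside them. In that library the cytosolic members had 18 to 100 counts and the mitochondrial members 0 to 21, with 12 of 16 under 10, so the counts and main values that rest on it are also given without it. IGFBP6 itself stood at 12.3 to 20.9 CPM in sh-LUC and 0.420 to 3.81 CPM in sh-IGFBP6, where the highest value is a single count in the shallow library. The markers of the cell line VIM (751 to 1420 CPM), CD44, ITGB1 (428 to 1020 CPM) and KRT18 (178 to 383 CPM) were abundant. CD44 stood at 1260 to 1440 CPM in sh-LUC and 544 to 705 CPM in sh-IGFBP6. The hormone receptor genes ESR1 and PGR did not exceed 3 and 1.47 CPM, nor KRT5 0.128 CPM. CDH1 reached 7.21 CPM in sh-LUC and 0.27 CPM in sh-IGFBP6. Of luminal markers KRT19 stood at 70.9 to 226 CPM, and EPCAM and GATA3 reached 22.9 and 13.1 CPM. COL1A1, a fibroblast marker, reached 41.0 CPM, and the other fibroblast, leukocyte and endothelial markers did not exceed 5.67 CPM. Levels are CPM, counts scaled to a library of 1e+06 counts with TMM effective library sizes, and a gene is called changed at a Benjamini-Hochberg adjusted p below 0.05 from edgeR's quasi-likelihood test, adjusted over the 15189 genes tested. VARS2, the mitochondrial valine enzyme, was the 1 member with too few counts to be tested (1.47 ± 0.78 CPM in sh-LUC vehicle, SD, n = 3), which left 34 members.

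In untreated sh-LUC cells most cytosolic members stood above most mitochondrial ones. Per kilobase of exon the cytosolic members lay between 7.81 and 45.1 CPM with a median of 26.9, and the mitochondrial members between 0.174 and 41.0 CPM with a median of 5.41. VARS1 (valine), FARSA (a subunit of the phenylalanine enzyme) and TARS1 (threonine) led the order at 45.1, 42.6 and 41.1 CPM per kilobase. The main exception among the mitochondrial genes was IARS2, the mitochondrial isoleucine enzyme. It ranked 4 of 35 at 41.0 CPM per kilobase and was the only mitochondrial gene among the top 17. The order of these 4 neighbours is not separated by their spread: the CPM before division by length were 274 ± 25.1, 104 ± 10.1, 235 ± 22.8 and 171 ± 9.18 (SD, n = 3) for VARS1, FARSA, TARS1 and IARS2. Lower in the order, RARS2 (9.74 CPM per kilobase) stood above YARS1 (9.61), HARS1 (9.30) and CARS1 (7.81), and AARS2 (8.05) stood above CARS1. Lengths are the union of annotated exons, which overstates the length of genes with many rare transcripts.

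The summed level of the cytosolic set moved across the 6 groups and that of the mitochondrial set moved little. Summed over its 19 genes, the cytosolic set stood at 2505, 2506 and 2585 CPM in the sh-LUC vehicle libraries, 3489, 3475 and 3322 CPM with DHA, and 4890, 4737 and 4746 CPM with erastin. In sh-IGFBP6 it stood at 3819, 3982 and 3646 CPM with vehicle, 4161, 4171 and 4125 CPM with DHA, and 4198, 4051 and 4023 CPM with erastin. The sh-LUC groups did not overlap one another, and the untreated sh-IGFBP6 libraries all lay above the sh-LUC DHA libraries and below the sh-LUC erastin libraries. The mitochondrial sum stayed within 480.0 to 560.1 CPM in all 18 libraries. IARS2 alone held 170.9 CPM of the mean sum of 505.2 CPM in sh-LUC vehicle and 139.5 of 551.9 CPM in sh-IGFBP6 vehicle. A steady sum can therefore hide moves of single members. Of the 15 tested, 7 were called higher and 3 lower in untreated sh-IGFBP6, beside 32.5% and 32.1% of all tested genes. The ratio of the cytosolic to the mitochondrial sum was 5.01 ± 0.02 (SD, n = 3) in sh-LUC vehicle, 6.51 ± 0.31 with DHA and 9.5 ± 0.22 with erastin, against 6.91 ± 0.33, 8.12 ± 0.37 and 8.48 ± 0.20 in the matching sh-IGFBP6 groups. CPM are shares of a library, so a change in the mix of cells and a change in RNA per cell cannot be told apart.

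**Figure D1:**
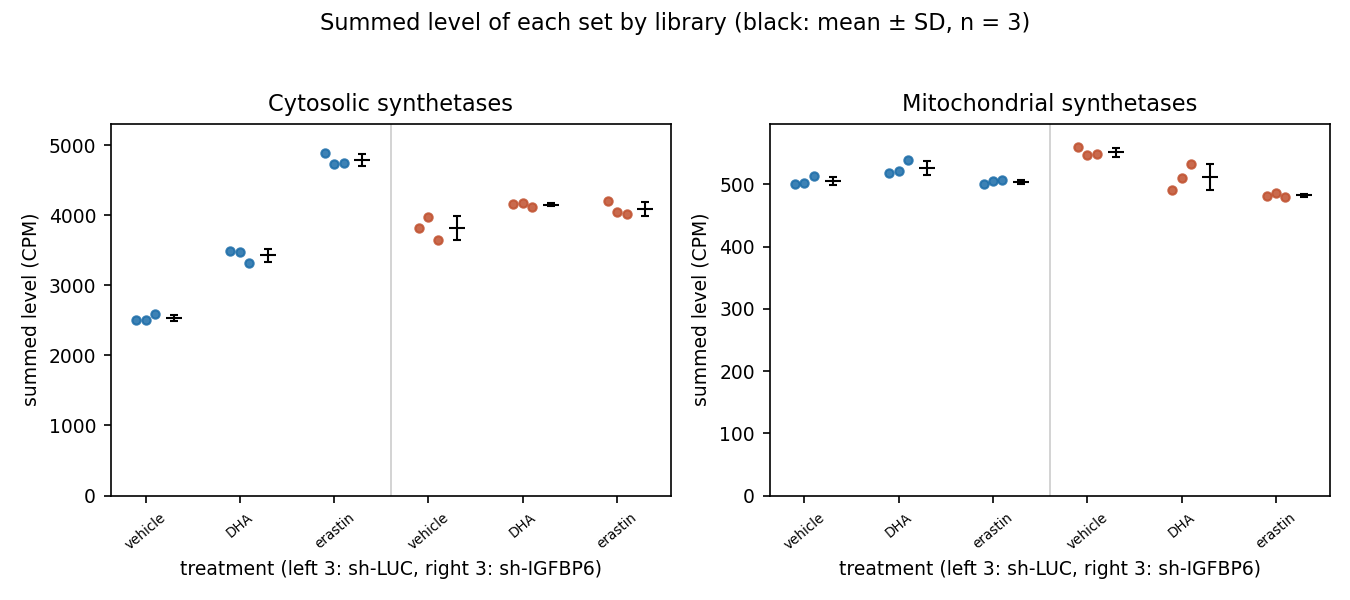
Summed level in CPM of the 19 cytosolic (left) and 16 mitochondrial (right) synthetase genes in each library (points; blue sh-LUC, orange sh-IGFBP6), with the mean ± SD of 3 libraries in black. The cytosolic sum climbs from about 2505 CPM to 4890 CPM across the sh-LUC groups and is spread less widely in sh-IGFBP6, while the mitochondrial sum stays between 480.0 and 560.1 CPM.

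Erastin raised most cytosolic synthetase genes in sh-LUC. Of 19, 14 rose and 1 fell, where 21.4% of all tested genes rose and 24.4% fell. The median log2 fold change was 0.86 over the cytosolic members and -0.02 over all genes. GARS1 stood at 121, 148 and 143 CPM with vehicle and at 522, 520 and 520 CPM with erastin. Every erastin library was thus more than 3 times the level of any vehicle library, and the log2 fold change was 1.92 (SE 0.078, adjusted p = 1.3e-22). YARS1, the tyrosine enzyme, rose from 82.1, 70.0 and 84.6 CPM to 253, 239 and 244 CPM, a log2 fold change of 1.63 (SE 0.069, adjusted p = 4e-44). Next by p were the isoleucine and threonine enzymes. IARS1 rose from 198, 192 and 208 CPM to 481, 451 and 452 CPM, and TARS1 from 213, 232 and 259 CPM to 516, 516 and 517 CPM. Their log2 fold changes were 1.21 (SE 0.056, adjusted p = 8.7e-41) and 1.13 (SE 0.055, adjusted p = 4.5e-39), and in all 4 genes the erastin libraries lay above the vehicle libraries without overlap.

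The remaining cytosolic genes formed a group that rose and a group that was not called. CARS1 (cysteine), WARS1 (tryptophan), AARS1 (alanine), MARS1 (methionine) and SARS1 (serine) had log2 fold changes of 1.31, 1.30, 1.28, 1.27 and 1.17. EPRS1 (glutamate and proline in 1 protein), NARS1 (asparagine) and LARS1 (leucine) followed at 0.86, 0.85 and 0.80, and FARSB (the other subunit of the phenylalanine enzyme) and VARS1 at 0.39 and 0.18. FARSA, HARS1 (histidine), KARS1 and RARS1 (arginine) were not called, with values of 0.13, 0.08, 0.07 and -0.10. The subunits FARSA and FARSB, which work in fixed proportion in 1 enzyme, were thus not called alike, although the difference between them was not tested. QARS1 was the only cytosolic member that fell. This enzyme loads glutamine, which these cells received in the medium, and it went from 198, 194 and 182 CPM to 132, 129 and 135 CPM, a log2 fold change of -0.53 (SE 0.061, adjusted p = 3.9e-13). VARS1 lost its call with scaling by library size alone and without sh-LUC vehicle replicate 3 or sh-LUC erastin replicate 1, and FARSB with scaling by library size alone.

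In animal cells 7 of the listed cytosolic enzymes (EPRS1, IARS1, KARS1, LARS1, MARS1, QARS1 and RARS1) sit together in the multisynthetase complex. In sh-LUC with erastin, where 21.4% of all tested genes rose and 24.4% fell, 4 of these 7 rose and 1 fell, with a median log2 fold change of 0.80 and a range from -0.53 (QARS1) to 1.27 (MARS1). Of the 12 outside the complex, 10 rose, with a median of 1.15. By structural class, 8 of 10 class I and 6 of 9 class II enzymes rose, with medians of 1.03 and 0.85.

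**Figure D2:**
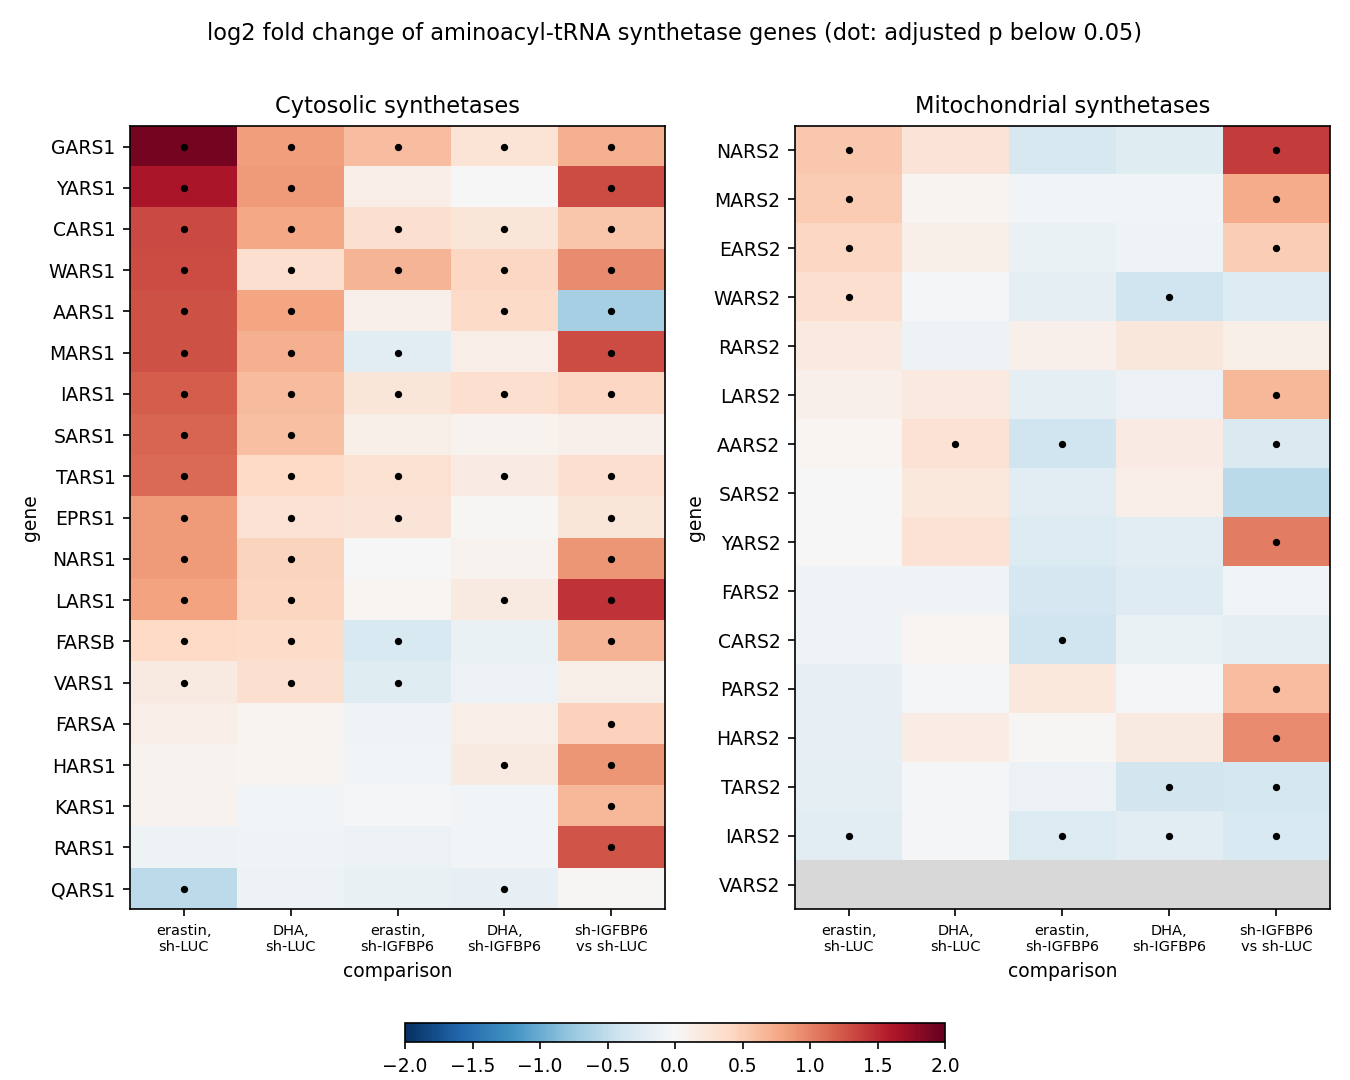
Log2 fold change (colour, red higher and blue lower) of each cytosolic (left) and mitochondrial (right) synthetase gene in 5 comparisons, ordered by the erastin value in sh-LUC; a dot marks an adjusted p below 0.05 and grey marks VARS2, which was not tested. The cytosolic panel holds 14 called rises with erastin and 14 with DHA in sh-LUC, and 15 in sh-IGFBP6 over sh-LUC without treatment.

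Of the mitochondrial members 4 of 15 rose and 1 fell with erastin in sh-LUC, beside 21.4% and 24.4% of all tested genes, so the share that rose was near the background. Their median log2 fold change was 0.00. NARS2 (asparagine) stood at 8.85, 8.42 and 10.5 CPM with vehicle and 15.8, 14.0 and 11.5 CPM with erastin, a log2 fold change of 0.55 (SE 0.17, adjusted p = 0.00648). MARS2 (methionine) went from 16.6, 12.9 and 16.8 CPM to 21.9, 22.0 and 22.4 CPM, a log2 fold change of 0.51 (SE 0.14, adjusted p = 0.00117). EARS2 (glutamate) and WARS2 (tryptophan) rose by 0.42 (SE 0.12, adjusted p = 0.00191) and 0.34 (SE 0.11, adjusted p = 0.00795). All of these rises are smaller than those of the cytosolic partners. IARS2, the most abundant of the set, went the other way, from 162, 180 and 171 CPM to 140, 151 and 150 CPM, a log2 fold change of -0.22 (SE 0.066, adjusted p = 0.00423), with no overlap between the groups. The call of NARS2 was lost without sh-LUC erastin replicate 1 (0.44, adjusted p = 0.0513) and that of WARS2 without sh-LUC vehicle replicate 2 (0.25, adjusted p = 0.109). By DESeq2, 2 mitochondrial members rose and 1 fell. With scaling by library size alone no mitochondrial member was called by edgeR, and that scaling turned 3256 rises and 3711 falls over all genes into 1457 and 3114 and shifted the median of all genes to -0.12, while 12 cytosolic members still rose and 1 fell.

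The promoters of the members were searched because ATF4 acts with C/EBP partners at a known composite element and because WARS1 is a known interferon target. RefSeq promoter windows (build GRCh38.p14) were found for 16 of 19 cytosolic and 14 of 16 mitochondrial genes, and the 250 bases before each start were searched on both strands. The composite element, searched as TGATGNAA, was present in 3 of these 16 cytosolic genes (AARS1, GARS1 and IARS1) and in 1 of these 14 mitochondrial genes (YARS2), and in 3.14% of all 35116 windows. The interferon-stimulated response element, searched as GAAA, any 2 bases and GAAA again, was present in WARS1 and EARS2 and in 3.02% of all windows. No member had both. These percentages are shares of windows, while the members are counted as genes. Several members have 2 windows, so the values are not on the same scale. The sequences are shown because 4 of these genes (AARS1, GARS1, IARS1 and WARS1) rose with both treatments in sh-LUC. They lie at chr16:70289675-70289704 on the minus strand for AARS1, at chr7:30594834-30594863 on the plus strand for GARS1, at chr9:92293698-92293727 on the minus strand for IARS1, at chr12:32756076-32756105 on the minus strand for YARS2, at chr14:100375384-100375413 on the minus strand for WARS1 and at chr16:23557555-23557584 on the minus strand for EARS2. Each is 30 bases long, written 5′ to 3′ along the strand of its gene, with the matched letters in capitals. A match on the other strand appears as the reverse complement of the letters searched.
AARS1: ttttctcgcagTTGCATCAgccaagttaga
GARS1: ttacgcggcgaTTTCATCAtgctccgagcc
IARS1: cccgcattttcagcgcgTTGCATCAcctcc
YARS2: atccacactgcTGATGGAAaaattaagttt
WARS1: ttttcagaaggGAAACTGAAAgaaagaggg
EARS2: ccctgccacgcTTTCGCTTTCccaagctga
The matches began 187 bases before the start in AARS1, 13 in IARS1 and 197 in YARS2. In WARS1 the match began 55 bases before 1 of its 2 annotated starts. The GARS1 match lay 33 bases before the later of its 2 annotated starts, and the EARS2 match lay 223 and 198 bases before its 2 starts. AARS1 and IARS1 hold the same 8 letters, TGATGCAA, on the strand opposite to the gene. A match is a description of these letters only, and MARS1, SARS1 and CARS1, whose windows hold no match, rose with erastin by 1.27, 1.17 and 1.31 in sh-LUC.

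DHA also raised most cytosolic genes in sh-LUC, and all of the called ones except VARS1 had a smaller fold change than with erastin. Of 19, 14 rose, where 7.14% of all tested genes rose and 9.63% fell. The median log2 fold change was 0.40, against 0.01 over all genes. YARS1 stood at 148, 149 and 130 CPM with DHA against 70.0 to 84.6 CPM with vehicle, a log2 fold change of 0.85 (SE 0.072, adjusted p = 2.8e-19). AARS1 went from 165, 164 and 157 CPM to 286, 300 and 254 CPM, a log2 fold change of 0.79 (SE 0.066, adjusted p = 6.2e-18). IARS1 stood at 300, 316 and 308 CPM, a log2 fold change of 0.63 (SE 0.057, adjusted p = 8.1e-18), and GARS1 at 253, 256 and 227 CPM, a log2 fold change of 0.83 (SE 0.079, adjusted p = 1.2e-10). In all 4 genes the DHA libraries lay above the vehicle libraries and below the erastin libraries. The other called members ranged from 0.29 (EPRS1) to 0.77 (CARS1), and FARSA, HARS1, KARS1, QARS1 and RARS1 were not called, with log2 fold changes from -0.11 (QARS1) to 0.06 (FARSA). FARSB lost its call without sh-LUC vehicle replicate 1. The erastin and DHA comparisons share their vehicle libraries.

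Of the 15 tested mitochondrial members 1 rose with DHA in sh-LUC, beside 7.14% of all tested genes. AARS2, the mitochondrial alanine enzyme, went from 33.6, 34.3 and 35.9 CPM to 46.7, 41.8 and 39.9 CPM, a log2 fold change of 0.29 (SE 0.10, adjusted p = 0.0312). The libraries did not overlap, yet the call was lost without sh-LUC vehicle replicate 1, 2 or 3 (adjusted p = 0.0942, 0.101 and 0.0634) and without sh-LUC DHA replicate 1 (adjusted p = 0.15). LARS2 (leucine) was next by p, at 47.1, 46.0 and 45.0 CPM against 52.6, 52.2 and 53.2 CPM, and was not called (0.20, SE 0.088, adjusted p = 0.117). With scaling by library size alone 5 cytosolic members rose with DHA and no mitochondrial member was called, while over all genes 1084 rises became 332 and 1462 falls became 424.

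Set directly against erastin in sh-LUC, DHA left 12 cytosolic members lower and 2 higher, where 24.2% of all tested genes were lower and 26.0% higher. The median difference was -0.49 on the log2 scale over the cytosolic members and 0.01 over all genes. GARS1 differed by -1.09 (SE 0.069, adjusted p = 2.1e-16), WARS1 by -0.96 (SE 0.059, adjusted p = 2.2e-30) and YARS1 by -0.78 (SE 0.059, adjusted p = 8.9e-24). WARS1 thus showed one of the widest gaps between the treatments: 124, 126 and 111 CPM with DHA against 229, 241 and 231 CPM with erastin and 98.0, 89.9 and 96.3 CPM with vehicle. QARS1 was 0.43 higher with DHA than with erastin, and VARS1 0.14 higher. VARS1 lost that call with DESeq2, with scaling by library size alone, without the filter on low counts and without any of 7 single libraries (sh-LUC DHA replicates 1 and 3, sh-LUC erastin replicates 2 and 3, sh-IGFBP6 vehicle replicate 3, and sh-IGFBP6 erastin replicates 1 and 3). Of the mitochondrial members AARS2, HARS2, IARS2 and YARS2 were higher with DHA, by 0.20 to 0.31, and MARS2, WARS2, EARS2 and RARS2 lower, by values from -0.45 to -0.30, while DESeq2 called 2 of these 8. Scaling by library size alone gave 1 higher and 4 lower cytosolic members, 3 higher mitochondrial members, and over all genes 4025 higher and 1453 lower in place of 3943 and 3675.

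**Figure D3:**
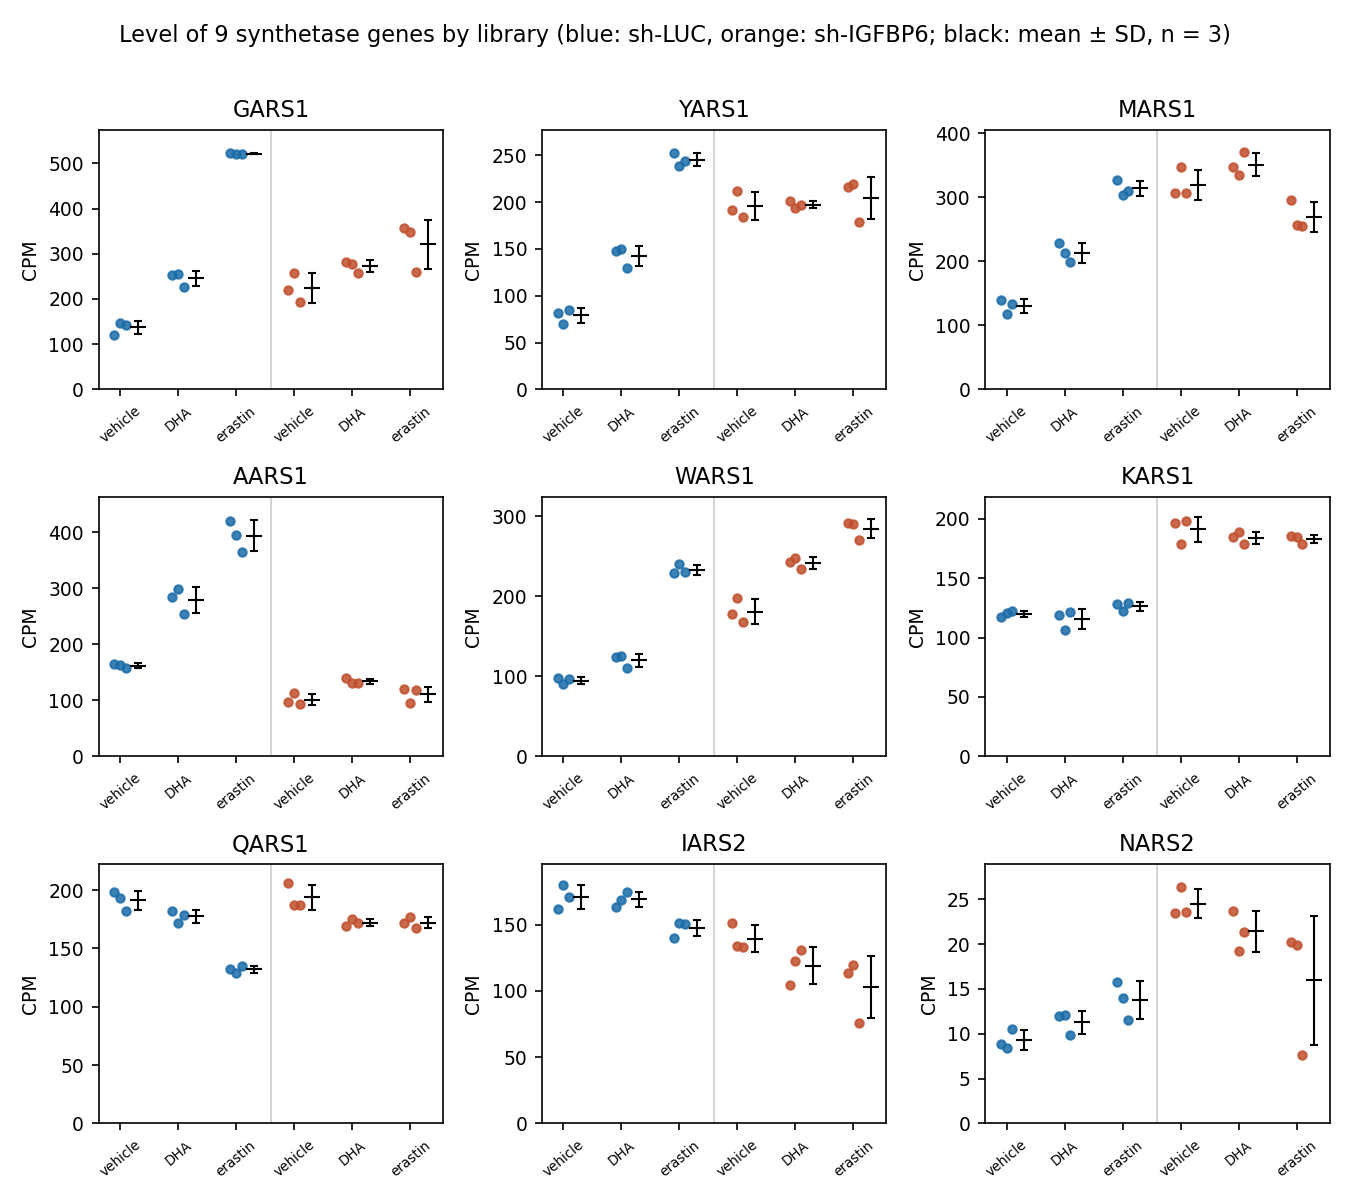
Level in CPM of 9 synthetase genes in each library (points; blue sh-LUC, orange sh-IGFBP6), with the mean ± SD of 3 libraries in black; each axis starts at 0. GARS1, YARS1, MARS1, AARS1 and WARS1 step up from vehicle to DHA to erastin in sh-LUC, KARS1 is separated by line and was not called with either treatment, and QARS1 is lowest with erastin in sh-LUC.

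Without treatment the cytosolic genes were already higher in sh-IGFBP6 than in sh-LUC. Of 19, 15 were higher and 1 lower, where 32.5% of all tested genes were higher and 32.1% lower, and the median log2 difference was 0.67 against 0.01 over all genes. LARS1 stood at 133, 132 and 155 CPM in sh-LUC and at 370, 402 and 381 CPM in sh-IGFBP6, a log2 fold change of 1.45 (SE 0.061, adjusted p = 2.8e-45). MARS1 stood at 139, 118 and 133 CPM against 307, 347 and 306 CPM (1.30, SE 0.066, adjusted p = 4.2e-37) and YARS1 at 82.1, 70.0 and 84.6 CPM against 192, 212 and 184 CPM (1.31, SE 0.073, adjusted p = 1.8e-34). In these 3 genes each sh-IGFBP6 library was more than double any sh-LUC library. RARS1, which was not called with either treatment in either line, differed by 1.27 (SE 0.075, adjusted p = 5.2e-32), and KARS1, likewise not called with treatment, stood at 118, 121 and 122 CPM against 197, 179 and 198 CPM (0.67, SE 0.067, adjusted p = 1.5e-16). AARS1 was the exception. It was lower in sh-IGFBP6, at 97.6, 113 and 93.3 CPM against 157 to 165 CPM, a log2 fold change of -0.67 (SE 0.075, adjusted p = 2.7e-13). QARS1, SARS1 and VARS1 were not called, with values of 0.02, 0.10 and 0.12. Scaling by library size alone left 12 cytosolic members higher and 1 lower and moved the median of all genes to 0.11, with 4601 genes higher and 3512 lower in place of 4936 and 4875.

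The mitochondrial members were split between the lines, with 7 of 15 called higher and 3 lower in untreated sh-IGFBP6. Over all tested genes 32.5% were higher and 32.1% lower, and the median was 0.12 against 0.01. NARS2 stood at 23.5, 26.4 and 23.6 CPM in sh-IGFBP6 against 8.42 to 10.5 CPM in sh-LUC, a log2 fold change of 1.39 (SE 0.17, adjusted p = 1.1e-12). YARS2, the tyrosine enzyme, differed by 1.03 (SE 0.15, adjusted p = 4.7e-10). HARS2 (histidine) stood at 47.9, 36.4 and 40.9 CPM against 20.9, 21.9 and 21.1 CPM (0.95, SE 0.12, adjusted p = 1.8e-11). MARS2, LARS2, PARS2 (proline) and EARS2 were higher by 0.74, 0.67, 0.62 and 0.49. Lower in sh-IGFBP6 were IARS2, at 151, 134 and 133 CPM against 162, 180 and 171 CPM (-0.30, SE 0.069, adjusted p = 7.7e-05), TARS2 (threonine), at 25.3, 21.2 and 27.3 CPM against 31.8, 30.4 and 30.7 CPM (-0.35, SE 0.13, adjusted p = 0.014), and AARS2 (-0.28, SE 0.12, adjusted p = 0.0298). The libraries of the lines did not overlap for these 3 genes. The TARS2 call was lost without sh-IGFBP6 vehicle replicate 2 (-0.23, adjusted p = 0.171), and the AARS2 call without sh-LUC vehicle replicate 2 or 3 or sh-IGFBP6 vehicle replicate 1, and DESeq2 called neither. AARS1 and AARS2, which load the same amino acid in the 2 compartments, were thus both lower in sh-IGFBP6.

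Erastin also moved cytosolic members in sh-IGFBP6. Of 19, 6 rose and 3 fell, where 14.7% of all tested genes rose and 14.3% fell, and the median log2 fold change was 0.05 against 0.00 over all genes. Scaling by library size alone turned that median to -0.31 and left 1 cytosolic call, a fall, while over all genes it gave 630 rises and 2098 falls in place of 2226 and 2178. WARS1 stood at 178, 197 and 167 CPM with vehicle and 292, 291 and 271 CPM with erastin, a log2 fold change of 0.67 (SE 0.064, adjusted p = 7.2e-17). GARS1 went from 219, 259 and 194 CPM to 356, 348 and 259 CPM, where the lowest erastin library, the shallow replicate 3, lay just above the highest vehicle library (0.61, SE 0.079, adjusted p = 7e-08). TARS1 went from 297, 301 and 291 CPM to 366, 359 and 377 CPM (0.30, SE 0.058, adjusted p = 1.4e-05), a direction that turned under scaling by library size alone (-0.06, adjusted p = 0.893). CARS1, EPRS1 and IARS1 rose by 0.32, 0.25 and 0.24. Under that scaling EPRS1 and IARS1 turned as well (-0.076 and -0.125), and EPRS1 also lost its call without sh-IGFBP6 vehicle replicate 3 or sh-IGFBP6 erastin replicate 1.

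FARSB, VARS1 and MARS1 fell with erastin in sh-IGFBP6. FARSB stood at 75.9, 73.8 and 69.4 CPM with vehicle and 61.9, 54.6 and 68.6 CPM with erastin (-0.31, SE 0.089, adjusted p = 0.00474), and it lost the call without sh-IGFBP6 erastin replicate 2 (-0.23, adjusted p = 0.114). MARS1 stood at 307, 347 and 306 CPM and 296, 258 and 255 CPM (-0.22, SE 0.063, adjusted p = 0.00466), with a loss of the call without sh-IGFBP6 vehicle replicate 2 (-0.15, adjusted p = 0.102) or sh-IGFBP6 erastin replicate 2 (-0.15, adjusted p = 0.17). Of the 15 tested mitochondrial members 3 fell, beside 14.3% of all tested genes. CARS2 (cysteine) stood at 41.6, 49.2 and 47.8 CPM and 37.1, 31.7 and 53.3 CPM, where the highest value comes from the shallow library (-0.40, SE 0.11, adjusted p = 0.00175; -0.41 and adjusted p = 0.00108 without it), and the call was lost without sh-IGFBP6 erastin replicate 2 (-0.29, adjusted p = 0.0744). IARS2 went from 151, 134 and 133 CPM to 113, 120 and 76.2 CPM (-0.28, SE 0.075, adjusted p = 0.00188; -0.25 and adjusted p = 0.00491 without the shallow library), with no overlap. AARS2 fell by 0.41 (SE 0.13, adjusted p = 0.00945), a call lost without sh-IGFBP6 vehicle replicate 2 or sh-IGFBP6 erastin replicate 1. Without the shallow library the counts were again 6 rises and 3 falls among cytosolic and 3 falls among mitochondrial members, and WARS1, GARS1 and TARS1 rose by 0.68, 0.65 and 0.29.

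With DHA in sh-IGFBP6, 8 of 19 cytosolic members rose and 1 fell, where 17.4% of all tested genes rose and 16.8% fell, with a median log2 fold change of 0.13 against 0.00. WARS1 was the member with the largest rise, at 242, 248 and 234 CPM against 167 to 197 CPM with vehicle (0.41, SE 0.061, adjusted p = 8.5e-09). AARS1 stood at 140, 130 and 132 CPM against 97.6, 113 and 93.3 CPM (0.39, SE 0.074, adjusted p = 1e-05), and IARS1 at 327, 345 and 327 CPM against 270, 278 and 248 CPM (0.33, SE 0.055, adjusted p = 3.4e-07). The libraries of these 3 genes did not overlap. GARS1 rose by 0.27, a call lost without sh-IGFBP6 vehicle replicate 3 (0.16, adjusted p = 0.0719). CARS1, HARS1, LARS1 and TARS1 rose by 0.25, 0.18, 0.17 and 0.17, calls that were each lost without sh-IGFBP6 vehicle replicate 3 and, except for TARS1, without at least 1 other library. QARS1 fell by 0.17, a call lost without sh-IGFBP6 vehicle replicate 1 or sh-IGFBP6 DHA replicate 1 or 3. YARS1, which rose in sh-LUC, stood at 201, 194 and 197 CPM against 192, 212 and 184 CPM and had a log2 fold change of 0.00 (SE 0.063). Without sh-IGFBP6 vehicle replicate 3 only 4 cytosolic members were called, and scaling by library size alone left no cytosolic call, against 8 rises and 1 fall (9 rises and 2 falls at an unadjusted p below 0.05, and 7 and 1 by DESeq2).

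Of the 15 tested mitochondrial members TARS2, WARS2 and IARS2 fell with DHA in sh-IGFBP6, beside 16.8% of all tested genes. The median over the 15 was -0.12. IARS2 stood at 104, 122 and 131 CPM against 151, 134 and 133 CPM (-0.21, SE 0.070, adjusted p = 0.0117). WARS2 stood at 18.6, 17.5 and 15.6 CPM against 23.8, 20.6 and 23.9 CPM (-0.39, SE 0.14, adjusted p = 0.016). The libraries did not overlap for either gene, but both calls rested on single libraries. IARS2 was not called without sh-IGFBP6 vehicle replicate 1 (adjusted p = 0.126) or sh-IGFBP6 DHA replicate 1 (adjusted p = 0.171), and WARS2 not without sh-IGFBP6 vehicle replicate 1 or 3 (adjusted p = 0.0562 and 0.0591) or sh-IGFBP6 DHA replicate 3 (adjusted p = 0.0714). TARS2 fell by 0.37 (SE 0.13, adjusted p = 0.022), and its call was lost with DESeq2 and without 4 single libraries (sh-IGFBP6 vehicle replicate 1 or 3, sh-IGFBP6 DHA replicate 1 or 3). Set directly against erastin in sh-IGFBP6, DHA left 4 cytosolic members higher and 3 lower, where 13.1% of all tested genes were higher and 12.8% lower. MARS1 (0.35) and AARS1 (0.29) were higher with DHA, and GARS1 (-0.34) and WARS1 (-0.26) lower. The call of AARS1 was lost without sh-IGFBP6 erastin replicate 2 and that of GARS1 without sh-IGFBP6 erastin replicate 1. Among the mitochondrial members AARS2 was 0.56 higher with DHA (SE 0.12, adjusted p = 0.00015), and CARS2 was 0.27 higher, a call lost in 20 of 25 alternatives. Without the shallow library 4 cytosolic members were again higher and 3 lower and 2 mitochondrial members higher, with AARS2 at 0.54, GARS1 at -0.39 and WARS1 at -0.28. Scaling by library size alone turned the WARS1 value (0.011), left no cytosolic call there and gave 973 higher and 568 lower genes in place of 1986 and 1942.

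The difference between the lines in the response was tested as an interaction, the sh-IGFBP6 log2 fold change minus the sh-LUC one. For erastin this difference was called negative in 14 of 19 cytosolic members and positive in 1. It was called negative in 12.0% and positive in 14.1% of all tested genes, and the median was -0.75 against 0.02. YARS1 (-1.50, SE 0.097, adjusted p = 3.2e-27), MARS1 (-1.49, SE 0.090, adjusted p = 1.5e-28) and GARS1 (-1.31, SE 0.11, adjusted p = 5.3e-12) differed most. The single positive value was that of QARS1 (0.38, SE 0.089, adjusted p = 0.00046), which fell by 0.53 in sh-LUC and was not called in sh-IGFBP6 (-0.15). For MARS1 the called direction differed, with a rise of 1.27 in sh-LUC and a fall of 0.22 in sh-IGFBP6. FARSB (0.39 and -0.31) and VARS1 (0.18 and -0.24) likewise had opposite calls. The interaction tests the difference and not opposite signs. Calls for the falls of MARS1 and FARSB and for the rise of VARS1 were lost without some single libraries. The difference was called negative in 5 of 15 mitochondrial members, led by NARS2 (-0.86, SE 0.22, adjusted p = 0.00151). One of them, AARS2, was not called in sh-LUC (0.04) and fell in sh-IGFBP6 (-0.41). Without the shallow library, calls were negative in 14 and positive in 1 of the cytosolic members, and negative in 7 mitochondrial ones. Without sh-LUC vehicle replicate 2 the mitochondrial count was 2. DESeq2 called 1 mitochondrial member.

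For DHA the difference was called negative in 13 of 19 cytosolic members, with a median of -0.30 against 0.00. It was called negative in 10.2% and positive in 10.4% of all tested genes. YARS1 again had the most negative value (-0.84, SE 0.096, adjusted p = 1.5e-12), followed by MARS1 (-0.59, SE 0.088, adjusted p = 4.3e-08) and GARS1 (-0.56, SE 0.11, adjusted p = 0.00018). WARS1 did not differ detectably between the lines with DHA (0.07, SE 0.093, adjusted p = 0.656), although it did with erastin (-0.63, SE 0.093, adjusted p = 2.1e-08). Of the 15 tested mitochondrial members only LARS2 and YARS2 were called, with a negative difference, while the median over the 15 was -0.19. Each of these calls was lost in 11 of 25 alternatives, DESeq2 among them. The calls of EPRS1, LARS1 and TARS1 were lost without sh-LUC vehicle replicate 1 or 2, among other single libraries. With scaling by library size alone 2 cytosolic members were called for DHA and 11 for erastin, all with a negative difference. Over all genes that scaling gave 739 negative and 588 positive calls for erastin and 765 and 276 for DHA.

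**Figure D4:**
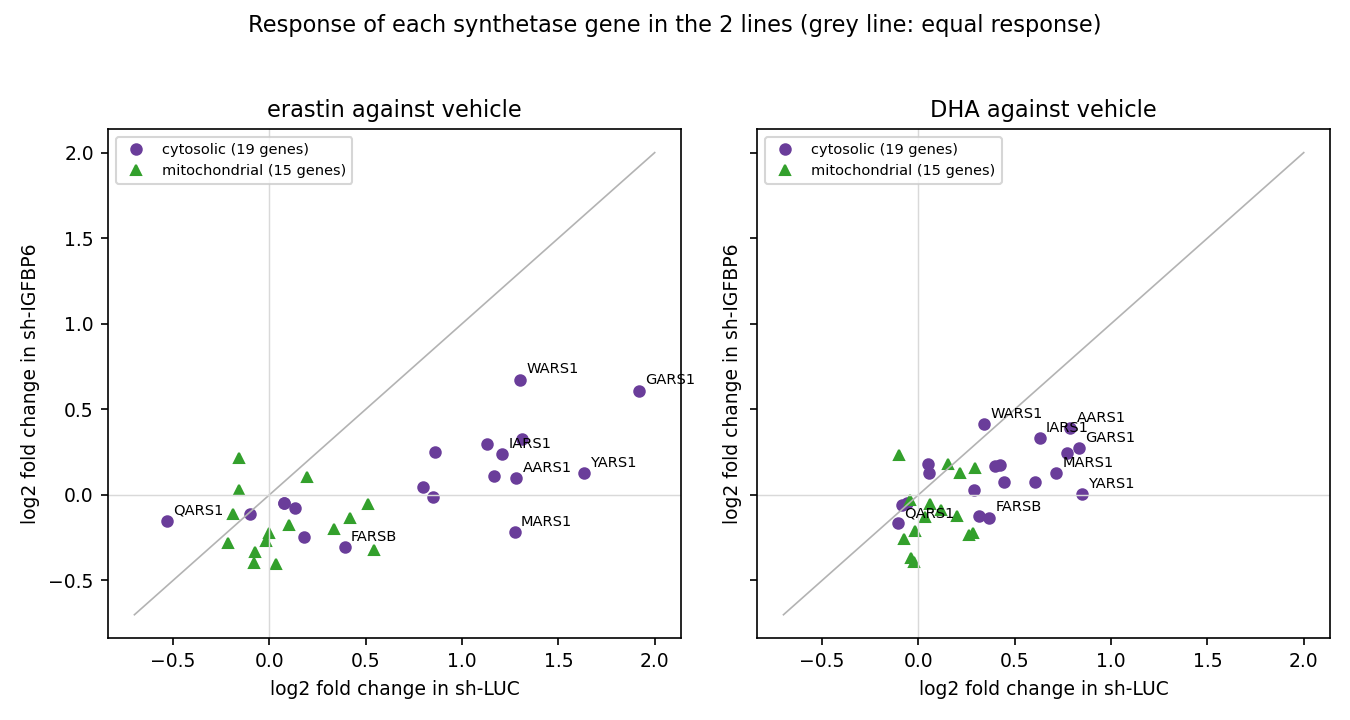
Log2 fold change against vehicle of each tested synthetase gene in sh-LUC (horizontal axis) and sh-IGFBP6 (vertical axis) for erastin (left) and DHA (right); circles are 19 cytosolic and triangles 15 mitochondrial genes, and the grey line marks an equal response. With erastin 18 of 19 cytosolic genes lie below the line, and QARS1 lies above it.

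The responses of the members can be set side by side between the lines. Across the 19 genes the erastin responses in sh-LUC and in sh-IGFBP6, which use separate libraries of 1 joint fit, had a Pearson r of 0.69, and the DHA responses one of 0.52. Across the 15 mitochondrial members r was -0.03 and 0.22. These are descriptions over genes, which are not independent replicates. The order of the lines in level differed by treatment. With vehicle, 14 cytosolic genes were higher in every sh-IGFBP6 library than in every sh-LUC library and 1 (AARS1) was lower, where 34.1% and 33.2% of all tested genes were. With DHA 13 were higher and 3 lower (AARS1, SARS1 and VARS1), where 35.4% and 34.9% of all tested genes were. With erastin, where 28.1% and 32.0% of all tested genes were, 7 were higher (FARSA, HARS1, KARS1, LARS1, QARS1, RARS1 and WARS1) and 10 lower (AARS1, CARS1, EPRS1, GARS1, IARS1, MARS1, SARS1, TARS1, VARS1 and YARS1), and the same 17 genes were without the shallow library, where the shares over all tested genes were 39.2% and 38.3%. Of those 10, GARS1, IARS1, MARS1, TARS1, YARS1 and CARS1 had been higher in untreated sh-IGFBP6. In AARS1 the gap widened with treatment, from 97.6, 113 and 93.3 CPM against 157 to 165 CPM with vehicle to 120, 95.1 and 118 CPM against 421, 395 and 366 CPM with erastin.

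Enzymes for the same amino acid can be set side by side in 15 pairs of tested genes, with EPRS1 paired with EARS2 and both FARSA and FARSB with FARS2. The cytosolic fold change exceeded the mitochondrial one in 14 of 15 pairs with erastin and 14 of 15 with DHA in sh-LUC, in 12 and 12 in sh-IGFBP6 and in 11 between the untreated lines. The widest gap with erastin in sh-LUC was that of tyrosine, 1.63 for YARS1 and -0.015 for YARS2, followed by isoleucine, 1.21 for IARS1 and -0.22 for IARS2. The exception was arginine, with -0.10 for RARS1 and 0.20 for RARS2, neither called. Between the untreated lines asparagine turned the other way, with 0.88 for NARS1 and 1.39 for NARS2.

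Several members share sequence or position with other genes, which bears on their counts. HARS1 and HARS2 lie head to head on chromosome 5 (HARS1 on the minus strand at 140673904 to 140691862, HARS2 on the plus strand at 140691426 to 140699318, GENCODE 29 on GRCh38) and share 437 exon bases. Both were higher in untreated sh-IGFBP6, by 0.88 (SE 0.078, adjusted p = 1.8e-19) and 0.95. HARS1 stood at 76.1, 69.1 and 73.8 CPM in sh-LUC and 139, 133 and 131 CPM in sh-IGFBP6, and neither gene was called with either treatment in sh-LUC. HARS1 rose slightly with DHA in sh-IGFBP6 (0.18, adjusted p = 0.0289), a call lost in 9 of 25 alternatives, 5 of them without single libraries (sh-IGFBP6 vehicle replicate 2 or 3, sh-IGFBP6 DHA replicate 1 or 3, sh-IGFBP6 erastin replicate 1). MARS1 (chromosome 12, plus strand, 57475445 to 57517569) shares 355 exon bases with DDIT3, a stress-induced transcription factor on the opposite strand, and 519 of its 7028 exon bases with ARHGAP9. Reads of the shared bases cannot be told apart here, since no source used here gives the strand setting of the counting. DDIT3 rose with erastin in both lines (0.97 in sh-LUC and 0.94 in sh-IGFBP6, or 0.90 without the shallow library). It also rose with DHA in sh-IGFBP6 (1.88). MARS1 rose with erastin and with DHA in sh-LUC (1.27 and 0.715). In sh-IGFBP6 MARS1 fell with erastin and was not called with DHA (0.13, adjusted p = 0.0768). The part of the overlap in the MARS1 values was not tested.

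Of the genes that serve both compartments, GARS1 moved with treatment and KARS1 was not called. GARS1 had the largest erastin rise of all members in sh-LUC, whereas KARS1 stood at 128, 122 and 129 CPM with erastin and 119, 107 and 122 CPM with DHA against 118, 121 and 122 CPM with vehicle. Its vehicle and DHA libraries overlapped, its erastin libraries lay just above them, and its log2 fold changes in both lines lay between -0.06 and 0.07 with SE of 0.062 to 0.067. WARS1 is also a known interferon-induced gene, so 12 interferon response genes were set beside it. Of the 11 tested, 8 fell with erastin in sh-LUC, where 24.4% of all tested genes fell, among them GBP2 (-1.43), IRF1 (-1.25), IFIT1 (-1.43) and IFIT3 (-0.89), while WARS1 rose by 1.30. In sh-IGFBP6 3 of them fell with erastin, with and without the shallow library, and 3 with DHA, beside 14.3% and 16.8% of all tested genes, and WARS1 was the member with the largest rise. Between the untreated lines 7 were lower and 2 higher in sh-IGFBP6, beside 32.1% and 32.5% of all tested genes, with GBP2 at -6.55, MX1 at -4.84 and GBP1 at -3.44, and WARS1 was 0.94 higher (SE 0.070, adjusted p = 1.5e-24).

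The regulators and other targets of the amino acid stress response are given for comparison, from lists set together with the members. With erastin in sh-LUC 7 of 12 tested regulators rose and 2 fell, beside 21.4% and 24.4% of all tested genes, with ATF3 at 5.55, PPP1R15A, the phosphatase subunit that reverses the response, at 3.13, TRIB3 at 2.73 and CEBPB at 1.71, while the kinase genes EIF2AK1 (-0.63) and EIF2AK2 (-0.28) fell. ATF4, named after its values were seen, rose by 1.20 with erastin (SE 0.064, adjusted p = 2.5e-33) and 0.52 with DHA in sh-LUC, by 0.52 and 0.48 in sh-IGFBP6, and was 0.40 higher in untreated sh-IGFBP6. Of 13 other targets, most of them enzymes of amino acid and folate metabolism, 12 rose with erastin and 12 with DHA in sh-LUC, beside 21.4% and 7.14% of all tested genes. PSAT1 of serine synthesis rose by 2.58 with erastin, the mitochondrial folate enzymes MTHFD2 and SHMT2 by 2.62 and 1.12, and the transsulfuration enzyme CTH by 3.30. In sh-IGFBP6 8 of 13 rose with erastin (9 without the shallow library), beside 14.7% of all tested genes. With DHA 3 rose and 2 fell, beside 17.4% and 16.8%, namely PSAT1 (-0.27) and PHGDH (-0.29). The interaction for erastin was called negative in 11 of 13 of these targets (11 also without the shallow library), with a median of -1.57. It was called negative in 6 of 12 regulators, among them ATF3 (-2.41), TRIB3 (-2.32), PPP1R15A (-1.17) and ATF4 (-0.69), and positive in EIF2AK1 (0.49) and EIF2AK2 (0.29). Over all tested genes 12.0% were called negative and 14.1% positive. For DHA the interaction was called negative in 8 of 13 targets and in 2 of 12 regulators (EIF2AK4 at -0.37 and TRIB3 at -0.61). It was called positive in 5 regulators, among them DDIT3 (1.39), CEBPB (0.80) and PPP1R15A (0.79). Over all tested genes 10.2% were called negative and 10.4% positive.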

How the data were processed

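RNA was measured in 18 MDA-MB-231 libraries (6 groups of 3) prepared after depletion of ribosomal RNA. The authors deposited raw read counts per gene for each library, and the tools behind these counts were, per the submitters' processing notes, cutadapt 4.4, STAR 2.7.7a with GRCh38, and featureCounts. Annotation release and strand setting: not given in the sources used here. Of the table's lines, 2 named no gene and were left out (at most 0.01082% of a library's counts), as was 1 gene with a blank value.

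The counts were tested with edgeR 4.0.16 (TMM scaling, filterByExpr with a minimum count of 10 and total of 15, robust quasi-likelihood fit, R 4.3.3) in 1 fit of all 18 libraries with 12 residual degrees of freedom, so that all groups share 1 estimate of the spread (biological coefficient of variation 6.29%). Adjusted p-values are Benjamini-Hochberg values over all 15189 tested genes, and 45520 genes were left out by the filter. Interactions are differences of log2 fold changes in that fit. Levels are CPM. Exon lengths and overlaps come from GENCODE 29, which may not be the release used for counting, and promoter sequences from RefSeq (GRCh38.p14). The code was tested on simulated data. Precision is limited by the shallow sh-IGFBP6 erastin replicate 3.

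The members and gene lists were chosen with earlier results of these data known. Per comparison, the members named with values by library were the 3 cytosolic and 2 mitochondrial genes with the smallest p, called members that moved against their set's median by at least 0.3 (log2), and GARS1, KARS1, MARS1, WARS1, HARS1 and HARS2. Other members follow by value. From each list of other genes up to 4 were named, by smallest p, with those that moved against their list. The 25 alternatives were DESeq2 1.42.0, scaling by library size alone or by upper quartile, no filter on low counts, a replicate block, a fit of the compared groups alone, leaving out MT-RNR1 and MT-RNR2, and leaving out each of the 18 libraries.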

Additional observations from a re-analysis of the deposited data

Results flagged for a closer look

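A test of the difference between the lines in the response to treatment (an interaction in edgeR's quasi-likelihood fit, sh-IGFBP6 minus sh-LUC on the log2 scale) singled out 20 of 34 tested members for erastin and 15 for DHA. The same test called 3973 and 3124 of all 15189 tested genes. For erastin the differences among the cytosolic members were -1.50 for YARS1, -1.49 for MARS1, -1.31 for GARS1, -1.18 for AARS1, -1.05 for SARS1, -0.99 for CARS1, -0.97 for IARS1, -0.86 for NARS1, -0.83 for TARS1, -0.75 for LARS1, -0.70 for FARSB, -0.63 for WARS1, -0.61 for EPRS1, -0.42 for VARS1 and 0.38 for QARS1. Among the mitochondrial members they were -0.86 for NARS2, -0.57 for MARS2, -0.55 for EARS2, -0.54 for WARS2 and -0.44 for AARS2. The adjusted p ran from 1.52e-28 (MARS1) to 0.0351 (AARS2), and AARS2 lost the call in 9 of 25 alternatives.

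For DHA the cytosolic differences were -0.84 for YARS1, -0.59 for MARS1, -0.56 for GARS1, -0.53 for CARS1, -0.53 for SARS1, -0.50 for FARSB, -0.44 for VARS1, -0.40 for AARS1, -0.37 for NARS1, -0.30 for IARS1, -0.26 for EPRS1, -0.25 for LARS1 and -0.23 for TARS1. The mitochondrial ones were -0.50 for YARS2 and -0.32 for LARS2. The adjusted p ran from 1.53e-12 (YARS1) to 0.0458 (YARS2). With 3 libraries a group, single libraries were not screened for values far from the others.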

How the results depend on the processing

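Results on the members named by the rule kept direction and side of the threshold in 1052 gene-by-alternative checks, lost the call in 47 and turned in 1: TARS1 with erastin in sh-IGFBP6 had -0.063 (adjusted p = 0.893) with scaling by library size alone, a scaling that put the median of all genes there at -0.185. Members named outside the rule that turned under it were EPRS1 (-0.076) and IARS1 (-0.125) with erastin in sh-IGFBP6, and EPRS1 (0.014) and WARS1 (0.011) for DHA against erastin there. Of the checks on counts of calls and on the difference between the set medians, 818 stayed within the limits set and 82 moved. Calls that held in every alternative were 13 of 20 members (erastin) and 5 of 15 (DHA) in sh-LUC, 1 of 12 and 0 of 12 in sh-IGFBP6, 20 of 26 between untreated lines, 12 of 20 and 2 of 15 for the line differences, and 5 of 22 and 1 of 9 for DHA against erastin in sh-LUC and sh-IGFBP6. The depth of sh-IGFBP6 erastin replicate 3 limits the mitochondrial members there.

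With DESeq2, genes called were 1449 for DHA in sh-LUC (2546 with edgeR), 2894 for erastin in sh-IGFBP6 (4404), 2361 and 1981 for the line differences in erastin and DHA (3973 and 3124), and 5047 and 2222 for DHA against erastin in sh-LUC and sh-IGFBP6 (7618 and 3928). Mitochondrial members called were 3 (erastin) and 0 (DHA) in sh-LUC, 1 and 0 for the line differences, and 2 and 1 for DHA against erastin. The difference between the set medians of the untreated lines was 0.638 (0.546 with edgeR).

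With scaling by library size alone, genes called were 4571 (6967) with erastin and 756 with DHA in sh-LUC, 2728 and 2579 (5202) in sh-IGFBP6, 1327 and 1041 for the line differences and 1541 for DHA against erastin in sh-IGFBP6. Cytosolic members called were 5 for DHA in sh-LUC, 1 for erastin and 0 for DHA in sh-IGFBP6, 2 for the line difference in DHA, and 5 and 0 for DHA against erastin in sh-LUC and sh-IGFBP6. Mitochondrial members called were 0 with either treatment in sh-LUC, 1 for DHA in sh-IGFBP6, 1 and 0 for the line differences, and 3 and 1 for DHA against erastin. The differences between the set medians were 0.048 for erastin in sh-IGFBP6 (0.247), -0.723 for the line difference in erastin (-0.496) and 0.117 for DHA against erastin in sh-IGFBP6 (-0.017). The causes of the other changes were not tested.

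Upper quartile scaling, no filter and a fit of the compared groups alone each left 1 mitochondrial call for DHA against erastin in sh-IGFBP6 (2 in the fit reported). Without the filter, 5 cytosolic members were called for DHA in sh-IGFBP6 and the untreated lines' set difference was 0.634.

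Leaving out single libraries gave, for DHA against erastin in sh-IGFBP6, 2592 to 4029 genes, 4 to 7 cytosolic and 1 to 2 mitochondrial members, and in sh-LUC a set difference of -0.652 to -0.486. For DHA in sh-IGFBP6 it gave 4 to 9 cytosolic and 1 to 4 mitochondrial members, and in sh-LUC 0 to 1 mitochondrial member. The line differences had 2 to 7 (erastin) and 0 to 2 (DHA) mitochondrial members, and the untreated set difference was 0.443 to 0.575.

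Same-numbered libraries shared little of their deviations from the group means, with correlations of -0.04 to 0.106 (median 0.005), against -0.1 to 0.068 for other pairs. These values cannot show if same-numbered samples were handled together. With the replicate block 1 mitochondrial member was called for DHA against erastin in sh-IGFBP6, and no other count moved beyond the limits.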

Other observations

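Genes that serve the synthetases differed between the lines and treatments in their own ways. XPOT, which exports transfer RNAs from the nucleus, rose by 1.22 (SE 0.062, adjusted p = 2.2e-37) with erastin and by 0.66 with DHA in sh-LUC, was 1.18 higher in untreated sh-IGFBP6, and was not called with either treatment there (0.07 and 0.11). Of 17 genes for transcription and processing of transfer RNA, 12 were higher and 1 lower in untreated sh-IGFBP6, beside 32.5% and 32.1% of all tested genes, with POLR3G, a subunit of RNA polymerase III, 1.74 higher and ELAC1, which trims the 3′ ends of transfer RNAs, at -1.19. With erastin in sh-LUC, where 21.4% of all tested genes rose and 24.4% fell, 7 of the 17 rose, among them TSEN15 of the splicing endonuclease (0.68), and 3 fell, namely MAF1, the repressor of RNA polymerase III (-0.26), BRF1 (-0.34) and TSEN54 (-0.34).

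Of 10 tested mitochondrial translation factors 8 were higher in untreated sh-IGFBP6 and 1 lower, beside the same 32.5% and 32.1% of all tested genes, led by the elongation factor TUFM (1.29, SE 0.069), with MTIF3 at -0.70. GATC and GATB, subunits of the enzyme that makes mitochondrial glutamine transfer RNA by amidation, were 0.92 and 0.88 higher, and MTFMT, which formylates the initiator, 0.61 higher. QRSL1, another subunit of the amidation enzyme, had the lowest value of these 4 genes, 0.18. Of the 4, 3 were called higher and 1 was not called, beside 32.5% of all tested genes called higher. Around the cytosolic enzymes, 5 of 6 scaffold and elongation factor genes rose with erastin in sh-LUC, against 21.4% of all tested genes, EEF1D by 0.76 and the complex scaffold AIMP1 by 0.48, and EEF1B2 was 1.19 higher in untreated sh-IGFBP6. A further 5 genes were listed under editing of transfer RNAs, among them PRORSD1P, which is annotated as a transcribed pseudogene. Of these 5, PTRHD1 fell with DHA in sh-LUC (-0.57) and DTD2 fell with DHA in sh-IGFBP6 (-0.67). In untreated sh-IGFBP6 DTD2 was 0.63 higher and PTRHD1 at -0.54.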
